A study of Mus musculus with 4 samples.

Results

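A set of 9 endoderm genes was followed in RNA sequencing libraries from mouse cells on day 9 of reprogramming. They comprised the transcription factors Foxa1, Foxa2 and Hnf4a and the extraembryonic endoderm products Pth1r, Dab2, Lrp2, Cubn, Plat and Sparc. Members were the rows of the deposited expression table with these names, 9 of 22369 genes. The rule itself uses names and no measured value, but the names were chosen with earlier results of these data known. The cells were OG2MEF, mouse embryonic fibroblasts with a fluorescent reporter driven by Oct4, which had been transduced in 2 rounds by pMX retroviruses. Per the protocol in the labels, all cells received Sox2 and Klf4 and in addition OCT4, SOX17, SOX17-V118M or GFP, followed by embryonic stem cell medium containing LIF and vitamin C. The protocol does not tie a library to one mix. By genotype label, 2 libraries carried wild-type SOX17 (SOX17 WT, here WT) and 2 carried SOX17-V118M (here V118M), a missense form. The labels describe no sorting and do not say whether replicates were separate cultures, so the spread between replicates may be technical.

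SOX17 is a SOX family factor of the F subgroup that is needed for definitive endoderm and works together with GATA factors in primitive endoderm. Primitive endoderm gives rise to parietal endoderm, which lays down a thick basement membrane, and to visceral endoderm, an absorptive epithelium that takes up maternal proteins through the endocytic receptors megalin and cubilin. FOXA1 and FOXA2 are forkhead factors that open chromatin in the definitive endoderm and its organs, and HNF4A is a nuclear receptor of visceral endoderm, liver and gut. Several of the product genes are also used by fibroblasts and other cells, so their RNA does not mark endoderm by itself.

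The study concerned SOX17 and OCT4 on a compressed motif in which the SOX and OCT sites touch. Its letters, CATTGTATGCAAAT, were therefore looked for on both strands in the RefSeq promoter windows of GRCm38.p6, which run from 250 bases before to 50 bases after each start site. Windows were held for 8 of the 9 genes, 14 windows in all. The compressed element was in 0 of 32851 windows of the genome and in none of these 14. An exact match to an element of this length is unlikely in such windows, so its absence tells nothing about these genes. Its SOX site alone, CATTGT, was in 12.6% of all windows and its OCT site, ATGCAAAT, in 1.74%, and neither was in a window of these genes. The other SOX-type hexamer searched, ACAAAG, was in 18.7% of all windows and in 3 of these 14, 1 each of Foxa1, Foxa2 and Pth1r. The GATA hexamer AGATAA was in 11.2% of all windows and in 3 of these 14, 1 each of Foxa2, Hnf4a and Dab2. The forkhead heptamer TGTTTAC was in 3.65% of all windows and in 1 of these 14, a window of Foxa1. These matches are a description of letters and say nothing of binding.

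A pair of upstream stretches is printed, for the gene that differed most clearly between the groups (Pth1r) and for the factor whose window held the most matches (Foxa1). Both lie on the minus strand of GRCm38.p6 and end just before the start site given in the deposited table. The Pth1r stretch is chr9:110743687-110743936, which the GENCODE M21 annotation places upstream of the listed transcript and within introns of longer Pth1r transcripts. It held none of the 6 motifs, and the ACAAAG match of Pth1r belongs to another of its start sites. The Foxa1 stretch is chr12:57546122-57546361, upstream of the listed transcript and within an intron of a longer one. Its capitals mark a forkhead heptamer on the reverse strand that overlaps an ACAAAG hexamer on either side.
Pth1r: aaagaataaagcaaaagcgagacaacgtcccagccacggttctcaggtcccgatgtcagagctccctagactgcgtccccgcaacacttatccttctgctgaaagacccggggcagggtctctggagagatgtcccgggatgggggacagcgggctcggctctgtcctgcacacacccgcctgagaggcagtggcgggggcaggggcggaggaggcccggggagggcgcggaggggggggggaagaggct
Foxa1: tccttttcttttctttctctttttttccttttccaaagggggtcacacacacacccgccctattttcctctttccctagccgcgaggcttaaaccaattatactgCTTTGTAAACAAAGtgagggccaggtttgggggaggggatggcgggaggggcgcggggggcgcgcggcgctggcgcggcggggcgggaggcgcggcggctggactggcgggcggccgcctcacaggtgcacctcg

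The values are whole numbers on a quantile-normalized scale, on which the 4 libraries share nearly the same set of values and a gene's value reflects its rank among genes. Library totals lay between 12855482 and 12859613 by construction, so the sequencing depth is unknown. V118M replicate 2 stood apart, with a Pearson correlation of 0.954 to 0.964 with the other libraries against 0.986 to 0.990 among those, across the 12661 genes whose mean on the log2 scale was 5 or more. It was the lowest library for 17.3% of tested genes with transcripts under 2000 bases and for 72.2% of those with 8000 bases or more. All 14 fibroblast markers were detected, with summed values of 154104 and 162648 in WT and 157036 and 137968 in V118M. The 12 pluripotency markers summed to 291 and 316 in WT and 413 and 380 in V118M, with Dppa4 listed at 0 throughout. Of 8 tested, 5 were higher and 3 lower in V118M, and the groups did not overlap in 2, against 28% of all tested genes. Tdgf1 was at 83 and 126 in WT and 188 and 149 in V118M. Nanog had low values, at 1 and 8 against 6 and 6, and Esrrb was at 1, 0, 0 and 0. Sox17 itself stood at 3484 and 2880 in WT and 3016 and 2396 in V118M, and whether these values include the delivered gene was not tested.

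At day 9 the 9 genes spanned nearly the whole scale, from Sparc near the top to Foxa2 listed at 0 in every library. The matrix and adaptor genes Sparc and Dab2 were abundant, whereas the endoderm factors Foxa2 and Hnf4a were at or next to 0 and Foxa1 had low values. Between V118M and WT, Pth1r was at about 1.91 times the WT mean, and the other tested genes differed less or overlapped. Over all genes tested, the difference passed an adjusted p of 0.05 for 0 of the 7 tested members and for 0 of 19547 genes (limma, Benjamini-Hochberg; 0% of the background). At an unadjusted p under 0.05 there was 1 member, Pth1r, against 4.01% of all genes, 2.31% higher and 1.7% lower in V118M. Foxa2 and Hnf4a did not reach a value of 1 in 2 libraries and were not tested.

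**Figure D1:**
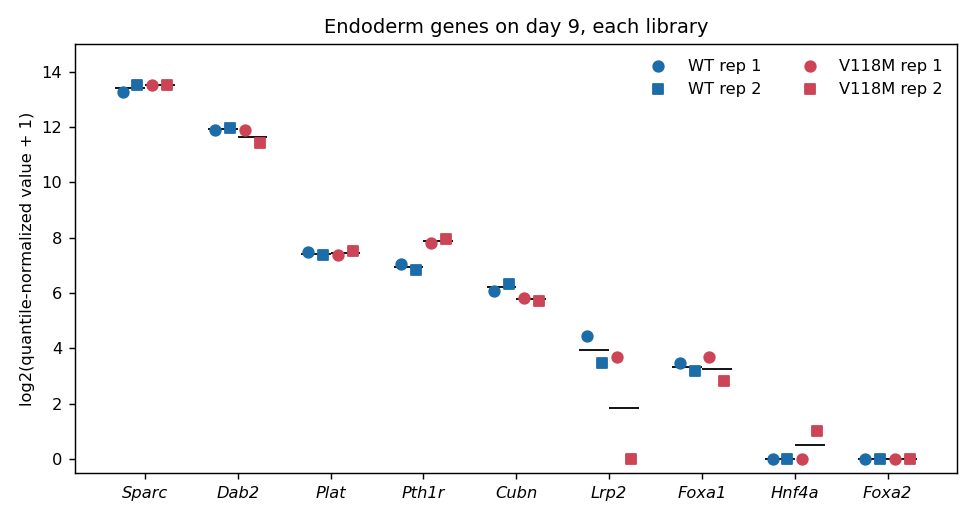
Values of the 9 endoderm genes in each library as log2(quantile-normalized value + 1), with circles for replicate 1, squares for replicate 2, blue for WT, red for V118M and a black line at each group's mean of the 2 log2 values. Pth1r is the gene whose 2 V118M points both stand clearly above its WT points, and Lrp2 in V118M replicate 2 is at 0.

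Of the endoderm transcription factors, Foxa2 (ENSMUSG00000037025, chromosome 2, 148042877 to 148046969, minus strand), which specifies definitive endoderm and the node, was listed at 0 in all 4 libraries. Hnf4a (ENSMUSG00000017950, chromosome 2, 163506808 to 163572910, plus strand), which drives the differentiation of visceral endoderm and hepatocytes, was listed at 0 in both WT libraries and at 0 and 1 in V118M. A value of 0 in a normalized table does not show that a transcript was absent, and between 3291 and 3366 genes were listed at 0 in each library. Foxa1 (ENSMUSG00000035451, chromosome 12, 57540628 to 57546916, minus strand), the related pioneer factor that is also used in many epithelia, had values of 10 and 8 in WT and 12 and 6 in V118M. The V118M libraries were the highest and the lowest of the 4, and both group means were 9. Its log2 fold change of -0.06 lay within its standard error of 0.54.

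Pth1r (ENSMUSG00000032492, chromosome 9, 110722085 to 110747145, minus strand) encodes the receptor for parathyroid hormone and its related peptide and is one of the early receptors of parietal endoderm. It is also known from bone, cartilage and other mesenchymal cells. Its values were 133 and 112 in WT and 222 and 247 in V118M. Both V118M libraries were above both WT libraries. This gave a log2 fold change of 0.93 ± 0.20 (standard error, n = 2 each; limma unadjusted p = 0.00440, adjusted p = 0.894). In order of unadjusted p it stood at place 94 of 19547 genes. It was between 0.81 and 1.06 when each library was left out in turn, and 0.94 with the trend on transcript length and GC content removed. Its unadjusted limma p was 0.0251 without WT replicate 1 and no longer under 0.05 without WT replicate 2 (0.0592), V118M replicate 1 (0.0656) or V118M replicate 2 (0.0815). The antisense gene Myl3, which shares 95 exonic bases with Pth1r, was at 0, 1, 1 and 0 across the libraries. By the rule for named genes, 3 others had a pattern nearest to that of Pth1r by Euclidean distance of gene-centred log2 values over the 4 libraries. They were Sfrp2, a secreted Wnt modulator (distance 0.0804), the nuclease gene Dnase1l3 (0.111) and the small GTPase gene Rab39b (0.112). Sfrp2 stood at 314 and 285 in WT and 556 and 610 in V118M. Rab39b was at 80 and 68 against 144 and 163, and Dnase1l3 at 16 and 14 against 26 and 32. Over only 4 libraries many genes can share such a pattern.

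The ligand and coupling genes of this receptor were read from a list of 7, of which 6 were in the table and 5 were tested. None of the 5 passed over all genes, and 0 had an unadjusted p under 0.05. Pthlh, the ligand that acts on this receptor in parietal endoderm, had values of 12 and 26 in WT and 24 and 22 in V118M. It and Gnas were picked after their values were seen. Gnas, the stimulatory G protein that couples the receptor to cyclic AMP, was at 14847 in every library, a tie that hides any difference. Ramp2, an accessory protein of several class B receptors, was at 44 and 54 against 60 and 71 (log2 fold change 0.41, standard error 0.27), and it shares 1103 exonic bases with Vps25 on the same strand. The receptor's arrestin Arrb2 was at 93 and 66 against 90 and 97, and the scaffold gene Slc9a3r1 at 704 and 672 against 670 and 592. The second receptor, Pth2r, was at 0, 0, 0 and 1.

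Of the endocytic genes, Lrp2, Cubn and their adaptor Dab2 all had lower mean values in V118M, and in each of them V118M replicate 2 was the lowest library. That library was the lowest for 4 of the 7 tested members and for 32.7% of all tested genes. Dab2 (ENSMUSG00000022150, chromosome 15, 6299788 to 6440712, plus strand) encodes a clathrin adaptor that binds the tails of megalin and related receptors and is needed for the sorting of primitive endoderm. Its values were 3818 and 3964 in WT and 3760 and 2756 in V118M. V118M replicate 1 was close to WT and replicate 2 was below the rest. The log2 fold change of -0.27 ± 0.20 (standard error; limma adjusted p = 0.951) became -0.05 without V118M replicate 2 against -0.50 without V118M replicate 1. With the length and GC trend removed it was -0.45. The transcript listed for Dab2 has 1406 bases and the longest annotated one 4663, so the length class of this gene is uncertain. Dab2 is also made by macrophages and endothelial cells. The 12 macrophage markers summed to 924 and 839 in WT and 638 and 652 in V118M, with Cd163 at 0 throughout. Of 11 tested macrophage markers 8 were lower in V118M, beside 9414 of all 19547 tested genes. The groups did not overlap in 1 of the 11, against 28% of all tested genes. Relative to the WT mean, their median log2 value was 0.58 and -0.58 in WT and -0.97 and 0.01 in V118M. The 10 endothelial markers summed to 1684 and 1742 in WT and 1553 and 1491 in V118M, with Emcn at 0 throughout. Of 9 tested endothelial markers 6 were lower, beside the same share of all genes. The groups did not overlap in 7 of the 9, with 6 lower and 1 higher in V118M, against 28% of all tested genes. Their part in the Dab2 values was not tested. In bulk RNA, fewer cells of a type and less RNA per cell cannot be told apart.

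Cubn (ENSMUSG00000026726, chromosome 2, 13276338 to 13491813, minus strand) encodes cubilin, the peripheral receptor of visceral endoderm and kidney tubule that needs amnionless to reach the membrane. Its values were 66 and 80 in WT and 55 and 52 in V118M, so the groups did not overlap. The fold change on the log2 scale was -0.44 ± 0.25 (standard error; limma adjusted p = 0.951). It was -0.40 without V118M replicate 2 and -0.26 after removal of the length and GC trend. The antisense gene Gm13270, which shares 368 exonic bases with Cubn, stood at 34 and 33 in WT and 14 and 12 in V118M (log2 fold change -1.30, standard error 0.35). No source used here states a strand-specific assignment of reads, so reads of these 2 genes may not be separable, and the part of Gm13270 in the Cubn values was not tested.

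Lrp2 (ENSMUSG00000027070, chromosome 2, 69424340 to 69586065, minus strand) encodes megalin, the large endocytic receptor that carries cubilin into the cell. Its values were 21 and 10 in WT and 12 and 0 in V118M. The groups overlapped, since V118M replicate 1 lay between the WT libraries. The log2 fold change of -2.11 had a standard error of 1.28 and rested on the single 0, and without V118M replicate 2 it was -0.26. It was also set by the pseudocount, at -3.73 with 0.1 and -1.10 with 5. The listed transcripts of Lrp2 and Cubn have 15460 and 11262 bases. Tested genes with transcripts of 8000 bases or more, 634 in number, were at a median of -0.49 on the log2 scale in V118M replicate 2 relative to the mean of the other 3 libraries. Cubn was at -0.34 and Lrp2 at -3.87 on the same measure, so Cubn lay above the median of its length class and Lrp2 below it. After removal of the length and GC trend the log2 fold change of Lrp2 was -1.88.

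**Figure D2:**
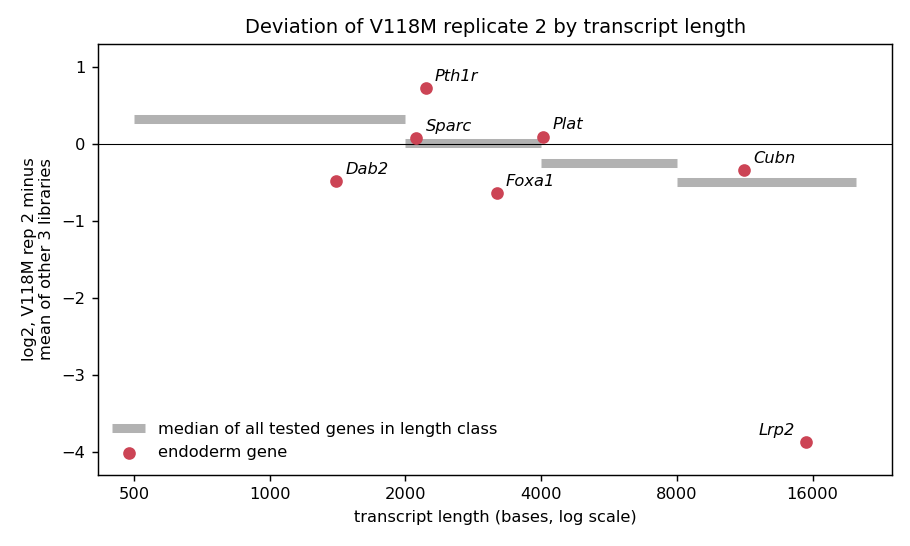
Log2 value in V118M replicate 2 minus the mean of the other 3 libraries (vertical axis) against transcript length in bases (horizontal, log scale) for the 7 tested endoderm genes (red), with grey bars at the median of all tested genes in 4 length classes. The class medians run from 0.32 under 2000 bases to -0.49 at 8000 bases or more, and Lrp2 at -3.87 lies far below its class.

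Partners of the megalin and cubilin system were taken from a list of 14 genes, all of them tested. None passed over all genes, 0 had an unadjusted p under 0.05, and the median log2 fold change was -0.04 beside 0.00 over all genes tested. The groups did not overlap in 4 of 14, against 28% of all tested genes. Amn, the amnionless gene, was barely detected, at 1 and 3 in WT and 6 and 4 in V118M (log2 fold change 1.06, standard error 0.63). Cltc, the clathrin heavy chain, was at 17630 in both WT libraries and at 14869 and 9022 in V118M. Its log2 fold change was -0.61, and -0.25 without V118M replicate 2. The adaptor Numb was at 949 and 961 against 838 and 780 (log2 fold change -0.24, standard error 0.14). Lrpap1, the chaperone of megalin, was at 1495 and 1802 against 1401 and 1811, and is named after its values were seen. Clathrin and its adaptors were abundant in these libraries, while Lrp2 and Amn had low values.

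Of the secreted products, Plat (ENSMUSG00000031538, chromosome 8, 22757727 to 22782844, plus strand) encodes tissue plasminogen activator, a protease made by parietal endoderm. Its values were 180 and 163 in WT and 165 and 181 in V118M. The 2 groups overlapped almost fully, and the log2 fold change of 0.01 was smaller than its standard error, 0.18. Sparc (ENSMUSG00000018593, chromosome 11, 55394500 to 55423183, minus strand) encodes a collagen-binding matrix protein that is abundant in parietal endoderm and also in fibroblasts. Its values were 9950 and 11735 in WT and 11735 and 11735 in V118M. On this scale identical values mean the same rank, so 3 of the 4 libraries could not be told apart. Its log2 fold change of 0.12 was within the standard error of 0.17.

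In the plasminogen list 9 of 10 genes were in the table and tested, and 0 passed over all genes or had an unadjusted p under 0.05. Serpine2, an inhibitor of plasminogen activators and thrombin, was at 1489 and 1512 in WT and 1805 and 2063 in V118M (log2 fold change 0.36, standard error 0.15). Serpinb2, another such inhibitor, was at 797 and 754 against 912 and 1002. These were the 2 genes of the 9 whose groups did not overlap, against 28% of all tested genes. Anxa2, a cell-surface partner of plasminogen and its activator, was at 22736 and 29476 against 19022 and 22736. In the list of SPARC relatives all 7 genes were tested, and 2 had an unadjusted p under 0.05, both lower in V118M (1.7% of all tested genes), with 0 passing over all genes. Spock1, Spock2 and Spock3 are given as those with the smallest p of the 7. Spock1, a testican proteoglycan, was at 51 and 42 in WT and 18 and 14 in V118M (log2 fold change -1.49, standard error 0.34, limma unadjusted p = 0.00661, adjusted p = 0.951). Its relative Spock2 was at 306 and 344 against 246 and 140 (log2 fold change -0.80), which was -0.40 without V118M replicate 2. Spock3 was at 79 and 155 against 112 and 180. Fstl1, named after its values were seen, was tied at 16312 in all 4 libraries.

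Levels of the members were ranked after division by the length of the listed transcript, as value per 1000 bases. The division assumes that the values grow with transcript length, which no source used here states. Sparc had the highest level at a mean of 5337 over the 4 libraries, followed by Dab2 at 2542, Pth1r at 80.4, Plat at 42.6, Cubn at 5.62, Foxa1 at 2.82 and Lrp2 at 0.695. Hnf4a followed at 0.580, from its single value of 1, and Foxa2 at 0. Among all genes with a length, Sparc and Dab2 were above 99.2% and 98.0%, Plat and Pth1r above 52.8% and 60.4%, Cubn above 34.9%, Foxa1 above 28.4% and Lrp2 above 15.5%. The lowest library of each gene was above the highest library of the next for the genes from Sparc to Foxa1. The neighbours Lrp2, Hnf4a and Foxa2 were not separated by their spread. With the longest annotated transcript in place of the listed one, the order was the same and Dab2 was at 767.

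Described as a group, the tested members had differences in both directions. The median log2 fold change over the 7 was -0.06, with 3 higher and 4 lower, beside 0.00 over all genes tested. The groups did not overlap in 3 of the 7, Pth1r higher and Dab2 and Cubn lower in V118M, against 28% of all tested genes (13.2% higher and 14.8% lower). The median was at -0.05 without V118M replicate 2 and at -0.48 without V118M replicate 1.

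Further factors of the endoderm were read from a list of 16 genes, of which 9 were tested. Foxa3, Hnf4g, Lhx1 and Otx2 were listed at 0 in all 4 libraries, and Cer1 had a single 1. None of the 9 passed over all genes, while 1 was higher and 1 lower in V118M at an unadjusted p under 0.05 (2.31% and 1.7% of all tested genes). The groups did not overlap in 5 of the 9, against 28% of all tested genes. Sox7, the closest relative of Sox17 in primitive endoderm, was at 73 and 52 in WT and 24 and 27 in V118M. The difference was -1.24 ± 0.32 on the log2 scale (standard error; limma unadjusted p = 0.0101, adjusted p = 0.951), and it was lower in V118M with each library left out in turn. Eomes, a T-box factor of the primitive streak and of early definitive endoderm, was at 20 and 26 against 51 and 42 (log2 fold change 0.99, standard error 0.33, limma unadjusted p = 0.0273, adjusted p = 0.951). Gsc, a homeobox factor of the anterior streak, was at 8 and 6 against 2 and 4. The 2 GATA factors of primitive endoderm were picked after their values were seen. Gata4 was at 16 and 7 against 12 and 14, with overlapping groups. Gata6 was at 119 and 116 against 105 and 92 (log2 fold change -0.26), with both V118M libraries below WT.

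Extraembryonic endoderm products were read from a list of 26, of which 25 were in the table and 22 were tested. None passed over all genes, 3 were higher and 0 lower in V118M at an unadjusted p under 0.05 (2.31% and 1.7% of all tested genes), and the median log2 fold change was -0.03. The groups did not overlap in 8 of 22, against 28% of all tested genes. Cited1, Rbp4 and Pdgfra are given as the 3 with the smallest p of the 22. Cited1, a transcriptional co-activator of extraembryonic tissue, was at 115 and 151 in WT and 256 and 309 in V118M (log2 fold change 1.09, standard error 0.22, limma unadjusted p = 0.00422, adjusted p = 0.894). Rbp4, the plasma carrier of retinol made by visceral endoderm, was at 22 and 19 against 44 and 94 (log2 fold change 1.61, standard error 0.44, limma unadjusted p = 0.0141, adjusted p = 0.951). Its fold change was 1.07 without V118M replicate 2. Pdgfra, a receptor of primitive endoderm and of mesenchyme, was at 302 and 248 against 460 and 352 (log2 fold change 0.55, standard error 0.21).

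The list also held 7 basement membrane genes, Lama1, Lamb1, Lamc1, Nid1, Hspg2, Col4a1 and Col4a2, which were grouped after their values were seen. V118M replicate 2 was the lowest library in 6 of the 7, against 32.7% of all tested genes and 59.3% of those with transcripts from 4000 to under 8000 bases. The exception was Lama1, at 21 and 8 in WT and 17 and 10 in V118M. By listed transcript, Hspg2 at 820 bases and Lama1 at 9526 lie outside that length class. The longest annotated Hspg2 transcript has 14187 bases, so its length class is uncertain. Lamc1, the laminin gamma chain, was at 9003 and 8064 in WT and 9003 and 4559 in V118M. The perlecan gene Hspg2 was at 10448 and 8726 against 9958 and 4366, and the collagen gene Col4a1 at 3624 and 3406 against 3316 and 2402. V118M replicate 1 was near WT in these 3 genes. Over the whole list, V118M replicate 2 was the lowest for 10 of the 22 tested products. The secreted carrier and plasma proteins of visceral endoderm were not alike in level. Afp was listed at 0 in every library, Apoa1 was at 0, 0, 0 and 1, and Apob at 2, 2, 2 and 0. Apoe, a lipid carrier that many other cells also make, was at 218 and 160 in WT and 170 and 229 in V118M.

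**Figure D3:**
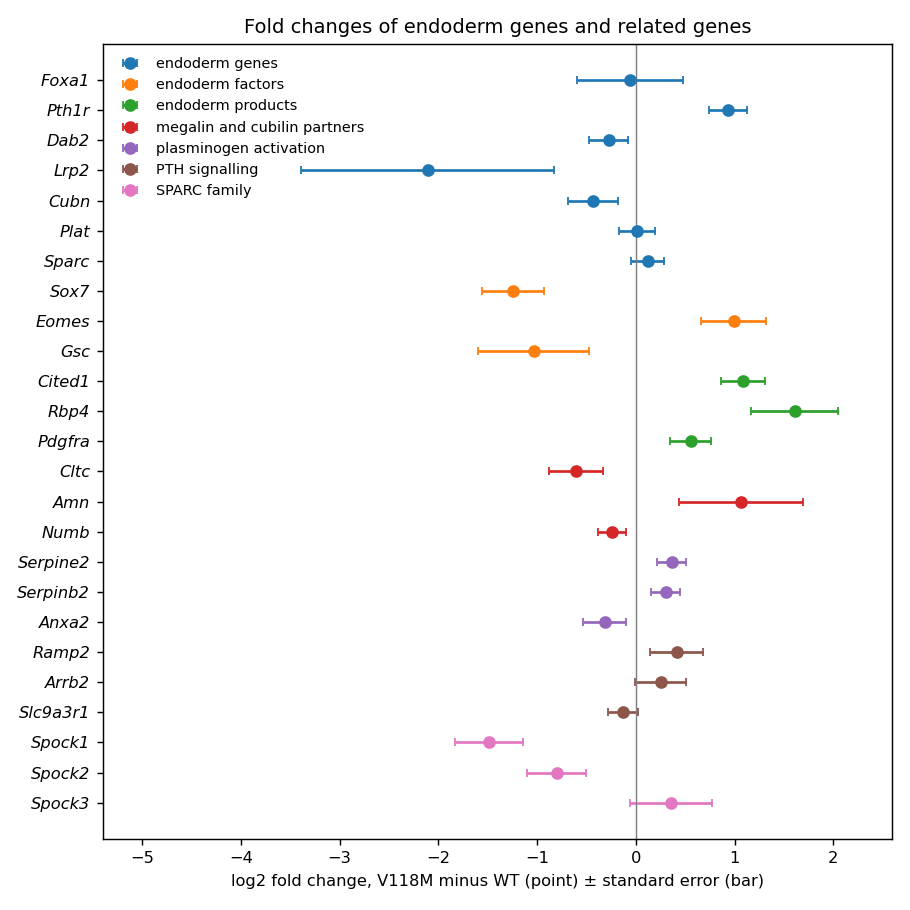
Log2 fold changes, V118M minus WT, on the log2(value + 1) scale (points) with standard errors (bars, n = 2 libraries each) for the 7 tested endoderm genes and for the 3 genes with the smallest p in each of 6 related lists. Pth1r at 0.93, Cited1 at 1.09 and Rbp4 at 1.61 lie to the right, Sox7 at -1.24 and Spock1 at -1.49 to the left, and Lrp2 has by far the widest bar.

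Absorptive cells of the kidney tubule also use Lrp2 and Cubn, so kidney tubule markers were read as well. Hepatocyte markers were read beside them, since HNF4A is also a factor of liver. Of 8 kidney tubule markers 4 were in the table, with Umod at 0 throughout, and their sum of 1812 and 1585 in WT and 1370 and 1410 in V118M was nearly all Aqp1, a water channel also found in other cells. Of 8 hepatocyte markers 7 were in the table, and they summed to between 12 and 43 in each library. The 12 epithelial markers summed to 22834 and 24312 in WT and 22593 and 24151 in V118M. Their part in the values of the endoderm genes was not tested.

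**Figure D4:**
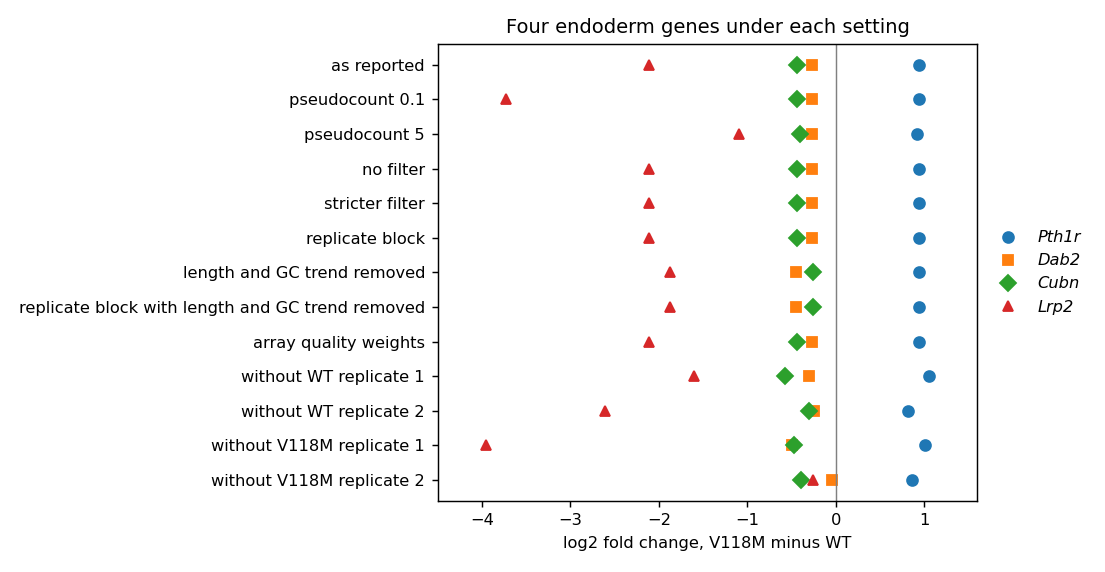
Log2 fold changes, V118M minus WT, of Pth1r, Dab2, Cubn and Lrp2 as reported and under 12 other settings, 1 row per setting. Pth1r stays between 0.81 and 1.06 in all of them, while Lrp2 runs from -3.96 to -0.26 and comes close to 0, with Dab2, when V118M replicate 2 is left out.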

How the data were processed

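Total RNA libraries, 2 WT and 2 V118M, were compared. Per the submitters' processing notes the build was mm10 and the tools included RSEM, Bowtie2, FastQC and DESeq2, without versions or roles. The deposited values are a score per gene, whole numbers that are not raw counts: 76.7% of ranks hold the same value in all 4 columns, and no source used here states the normalization. Depth is therefore unknown. Ties compress differences among abundant genes, and shifts of most genes cannot be seen.

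Genes were matched by transcript to GENCODE M21 (GRCm38, also called mm10), 22304 of 22369, and positions are counted from 1. Values were transformed as log2(value + 1), which understates changes of low genes, and the 19547 genes that reached 1 in 2 or more libraries were tested. The package limma 3.58.1 (R 4.3.3; trend and robust options, group as the only term, two-sided) was fitted over all of them, and p-values were adjusted over these genes by Benjamini-Hochberg. The fit was tested on simulated data. Standard errors and p-values are limma's moderated ones, in which each gene's spread is drawn toward a trend over all genes. They rest on the spread between these libraries only and do not give the spread of a gene by itself. A gene tied in all libraries, such as Gnas, therefore still has a standard error above 0. Genes named by rule are the 9 members and the 3 genes with the smallest p of each of 6 related lists. Also named by rule are the 3 genes nearest in pattern to the member with the smallest p. Apart from the members, these rules pick on the same values. The p-values and kept directions of genes so picked are therefore no separate support. Every other gene was picked after its values were seen. Members and lists were chosen with earlier results of these data known. Promoter sequences are from RefSeq (GRCm38.p6).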

Additional observations from a re-analysis of the deposited data

How the results depend on the processing

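The filter settings, the replicate block and the array quality weights returned the same fold changes as the main fit, so those could not turn. Adding the block to the removal of the length and GC trend likewise changed no fold change. Of 84 fold changes of members under the alternatives, 79 kept their direction, 4 turned, all with a library left out, and Sparc was at 0 without WT replicate 1. None passed an adjusted p of 0.05. With each library left out, Foxa1 ran from -0.51 to 0.39, above 0 without WT replicate 1 (0.08) or V118M replicate 2 (0.39). Plat ran from -0.058 to 0.084, below 0 without WT replicate 2 or V118M replicate 2. Of 250 for the other named genes 1 turned, Spock3, which ran from -0.13 without WT replicate 1 to 0.84 without WT replicate 2. The cause was not tested. The count of members passing over all genes was 0 in all 12 alternatives. Members at an unadjusted limma p under 0.05, a count added after seeing the data, numbered 1 (Pth1r) in the main fit, beside 784 of all genes. With the replicate block they numbered 2 (Pth1r and Lrp2), beside 1204 of all genes. They were the same 2 with the length and GC trend also removed, beside 1295 of all genes. Members whose groups do not overlap, also added after seeing the data, numbered 3 with all libraries. They numbered 4 to 6 with each library left out, where a group holds a lone library and overlap is less likely for any gene. The share of all genes was not counted there, so the rise is no sign of clearer separation. The member median was between -0.48 and 0.00 in those fits, where the lone library of a group is assumed to vary like the other group.

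Over all genes, 784 had an unadjusted p under 0.05. There were 1441 with no filter, and 221 to 5096 with each library left out. With the replicate block there were 1204, 3 of which passed an adjusted p of 0.05, and 1295 with the block and the length and GC trend removed. Replicates share only a number: same-numbered deviations correlated at 0.02 across tested genes and at 0.30 across those with a log2 mean of 5 or more. Depth is unknown, so what it limits could not be measured.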
